A study of Arabidopsis thaliana with 12 samples.

Results

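LTI30, COR47, ERD10, RD29A, KIN1/KIN2 and LEA4-5 are cold- and drought-responsive genes whose products may protect plant cells when water is withdrawn or frozen. They were followed as 6 probe sets out of 22810 on the Affymetrix ATH1 array, written here as the array's name, a point and the probe set's name. They are ATH1.252102_at for LTI30 (AT3G50970), ATH1.259570_at for COR47 (AT1G20440), ATH1.259516_at for ERD10 (AT1G20450), ATH1.248337_at for RD29A (AT5G52310), ATH1.246481_s_at for KIN1 (AT5G15960) and KIN2 (AT5G15970) together, and ATH1.250648_at for LEA4-5 (AT5G06760). The list names its probe sets and uses no measured threshold, but it was drawn up with earlier results of these data known. All 6 had signals above the filter on low values and were tested.

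Whole Arabidopsis thaliana seedlings at growth stage 1.02 were profiled on 12 arrays, and the series title names membrane fluidity and the perception of low temperature as its subject. There were 6 lines with 1 array from the cold and 1 array from ambient temperature each. The altered lines were fab1 and fad2, which are EMS mutants, fad3/7/8, a triple mutant obtained by crossing that carries apoaequorin per its titles, and 35S-FAD3, in which the constitutive 35S promoter drives a linoleate desaturase. The control lines were Col-aeq, a Columbia line with the apoaequorin calcium reporter, and Col-0. The fab1 mutant lowers the elongation of palmitate, fad2 is deficient in the oleate desaturase outside the chloroplast and fad3/7/8 lacks linoleate desaturases, so the membranes of these lines differ in unsaturation. The 35S-FAD3 arrays are titled so, while their genotype label names only 35S::apoaequorin, and every value of that line rests on the title. Growth was at 20 °C, days had 16 h of light and 8 h of darkness, and the seeds had first spent 4 days refrigerated. How cold the treatment was, how long it lasted and how many seedlings made up an array were not given in the sources used here.

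Dehydrins are hydrophilic proteins of the late embryogenesis abundant (LEA) families that stay unfolded in solution and coat membranes and enzymes as water is lost. In vegetative tissue some dehydrin genes and COR (cold-regulated) genes are switched on by CBF transcription factors and by abscisic acid. CBF factors bind a short C-repeat element in the promoters of these genes. Several of them lie beside a close relative in the genome. In the RefSeq annotation of TAIR10.1, COR47 is next to ERD10, KIN1 next to KIN2, LTI30 next to the dehydrin gene XERO1, and RD29A (listed there as LTI78) next to LTI65, which is also called RD29B.

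The control probe sets set apart, above all, the array of Col-aeq at ambient temperature. The ratio of its 3' to its 5' actin signal was 7.00, where the remaining 5 ambient arrays had 1.96 to 2.21, and its 25S rRNA signal was 2463, where they had 134 to 312. The Col-aeq cold array also lay outside for 25S rRNA, at 849.3 against 99.1 to 472.6 on the remaining cold arrays, while its actin ratio of 2.08 lay among theirs. Results are therefore also given without both Col-aeq arrays. Markers of shoot and root were present, with signals of 3044 to 3916 for the shoot gene RCA and 2230.5 to 2815.6 for the root gene PYK10 over the 12 arrays. Of the 7 seed storage genes listed as markers, 0 had a named probe set, so seed transcripts were not assessed. Of the 2 shoot genes matched to a probe set LHCB4.1 was lower in the cold, by limma at −0.31 (SE 0.0606, adjusted p = 0.00269). Of 4 root genes 0 passed for cold. Among all 13648 probe sets tested, 4538 passed for cold in either direction, 2042 of them higher in the cold. In fad2, where 9.44% of all probe sets passed in either direction, 2 of the 4 root genes passed, PER57 at 1.11 (SE 0.202, limma adjusted p = 0.0103) and EXPA18 at 0.96 (SE 0.238, limma adjusted p = 0.0317). EXPA7 at 0.75 (limma adjusted p = 0.0563) and PYK10 at −0.14 (limma adjusted p = 0.401) did not. The part of shoot and root shares in the results on the 6 probe sets was not tested. In whole seedlings a change in the number of cells of a type and a change in the RNA of each cell cannot be told apart.

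The first comparison asked how far cold moved each gene in the 6 lines. The cold signal was above the ambient signal in 6 of 6 lines for each of the 6 probe sets, and the lowest cold array lay above the highest ambient array for all 6. RD29A rose about 9.94-fold, LTI30 and ERD10 4.81-fold and 4.66-fold, LEA4-5 3.34-fold, KIN1/KIN2 3.29-fold and COR47 2.65-fold. By limma with Benjamini-Hochberg adjustment 6 of 6 rose, where 15.0% of the 13648 probe sets tested did. Complete separation of the 6 cold from the 6 ambient arrays, upward, was seen for 5.60% of probe sets. The median log2 change was 1.98 for the 6 probe sets and −0.04 for all probe sets tested.

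**Figure D1:**
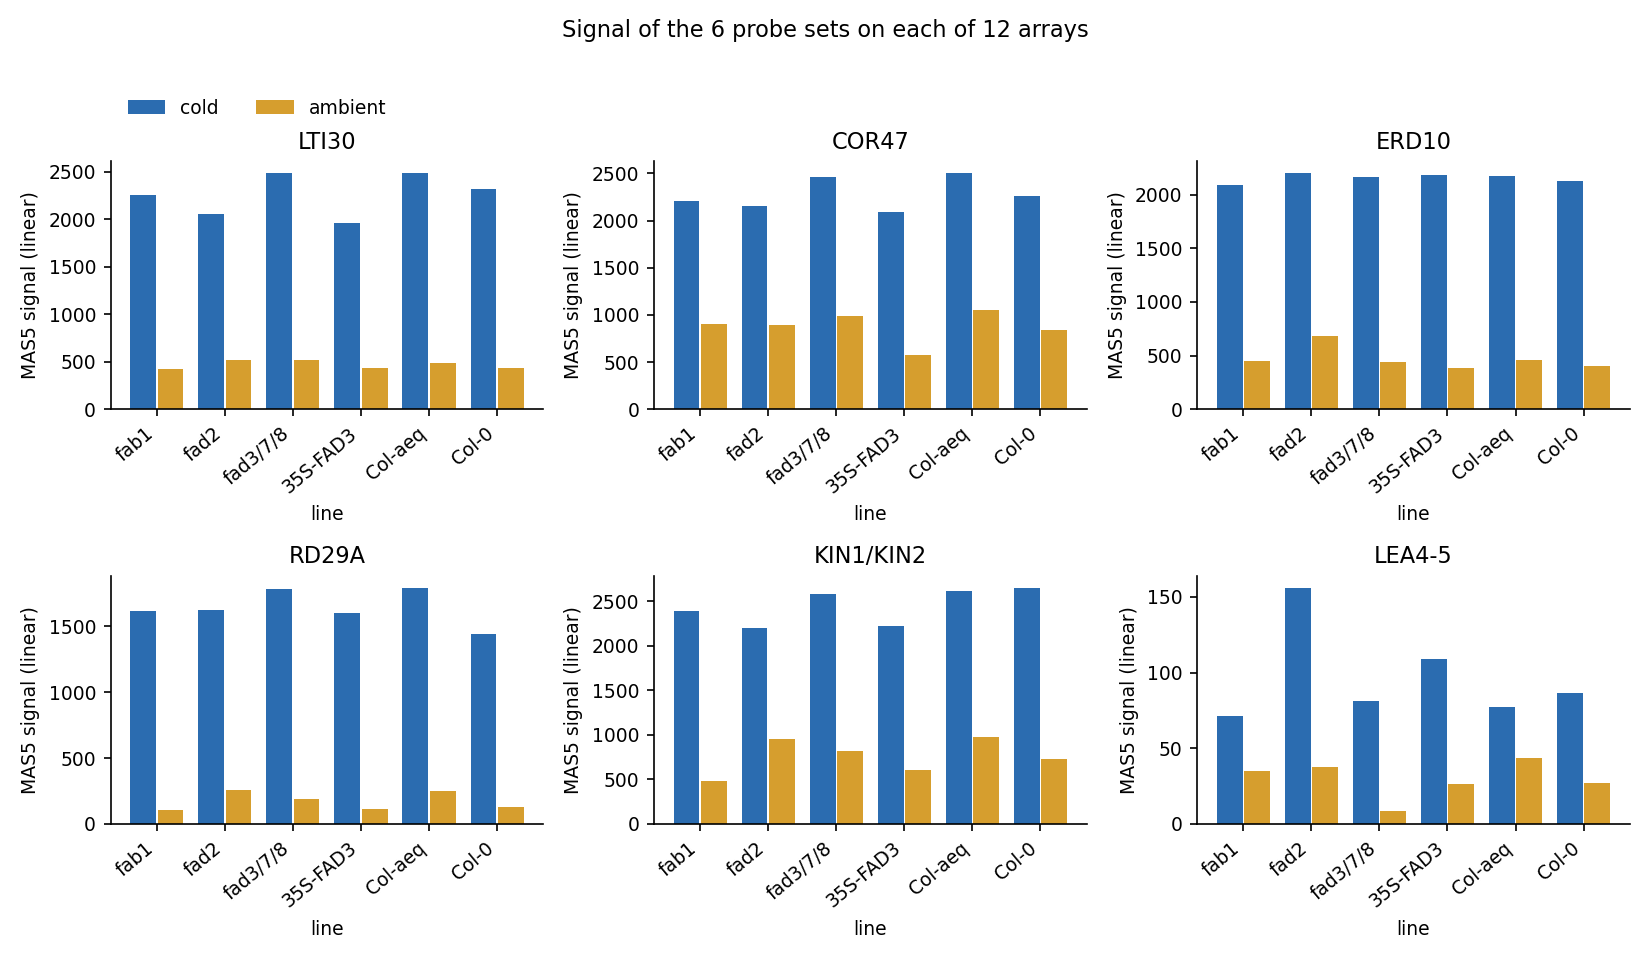
Signal of each probe set (linear MAS5 signal, axis from 0) on the 12 arrays, by line, with the cold bar left of the ambient bar; each bar is 1 array. Cold bars stand above every ambient bar in all 6 panels, and the LEA4-5 panel has the lowest scale, with a highest signal of 156.1.

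Among the dehydrins, LTI30 (also called XERO2) encodes a lysine-rich protein built of repeated K-segments that binds membranes. Its cold signal was 2261 in fab1, 2060.5 in fad2, 2489.5 in fad3/7/8, 1962.8 in 35S-FAD3, 2486.9 in Col-aeq and 2322.1 in Col-0. Its ambient signal was 425.6 in fab1, 517.8 in fad2, 514.3 in fad3/7/8, 436.9 in 35S-FAD3, 486.9 in Col-aeq and 435.4 in Col-0. LTI30 thus averaged 2264 ± 217 in the cold and 469 ± 41.9 at ambient temperature (SD, n = 6 lines), with no overlap. The fitted change was 2.26 on the log2 scale (SE 0.0722, 95% interval 2.11 to 2.42, limma adjusted p = 4.4e-09), and 2.25 without Col-aeq. It was the most even of the 6 across lines, from 3.98-fold in fad2 to 5.33-fold in Col-0.

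COR47 encodes an acidic dehydrin. Its cold signal was 2209.6 in fab1, 2155.1 in fad2, 2463.5 in fad3/7/8, 2096.2 in 35S-FAD3, 2505.5 in Col-aeq and 2256.6 in Col-0. At ambient temperature it was 899.2 in fab1, 888.4 in fad2, 991.4 in fad3/7/8, 573.5 in 35S-FAD3, 1053.9 in Col-aeq and 838 in Col-0. The 35S-FAD3 ambient array was the low one, and the other 5 ambient arrays lay between 838 and 1053.9. The fitted rise of COR47 was the smallest of the 6, 1.40 on the log2 scale (SE 0.0841, 95% interval 1.22 to 1.59, limma adjusted p = 5.81e-07; 1.44 without Col-aeq). Within lines the rise was 3.66-fold in 35S-FAD3 and 2.38-fold to 2.69-fold in the others.

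ERD10, the neighbour of COR47, encodes another acidic dehydrin with chaperone activity in vitro. In the cold its signal was 2089.8 in fab1, 2202.3 in fad2, 2161.4 in fad3/7/8, 2183.4 in 35S-FAD3, 2170.8 in Col-aeq and 2128.4 in Col-0. The highest cold array was 1.05 times the lowest, across mutants, overexpressor and controls. At ambient temperature the signal was 451 in fab1, 678.8 in fad2, 438.4 in fad3/7/8, 386.3 in 35S-FAD3, 459.6 in Col-aeq and 404.7 in Col-0, so fad2 was high and the other 5 lines close together. The fitted change was 2.22 (SE 0.0953, 95% interval 2.01 to 2.43, limma adjusted p = 4.63e-08; 2.22 without Col-aeq). The rise was 3.24-fold in fad2 and 4.63-fold to 5.65-fold in the other lines.

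RD29A, whose promoter is the standard reporter of cold, drought and salt signalling, encodes a hydrophilic protein. Its cold signal was 1618.2 in fab1, 1627.4 in fad2, 1781.7 in fad3/7/8, 1602.6 in 35S-FAD3, 1795.2 in Col-aeq and 1440.2 in Col-0. Its ambient signal was 109.3 in fab1, 259.8 in fad2, 187.8 in fad3/7/8, 111 in 35S-FAD3, 250.5 in Col-aeq and 128.1 in Col-0. Cold levels were alike across lines, while the highest ambient array was 2.38 times the lowest. RD29A had the largest change of the 6, 3.31 on the log2 scale (SE 0.154, 95% interval 2.98 to 3.65, limma adjusted p = 8.08e-08; 3.41 without Col-aeq), the 20th largest rise among the 13648 probe sets tested. Its rise was 14.8-fold in fab1, 14.4-fold in 35S-FAD3, 11.2-fold in Col-0, 9.49-fold in fad3/7/8, 7.17-fold in Col-aeq and 6.26-fold in fad2, which is the order of the ambient signals turned round. The ambient signal is the denominator of these folds.

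KIN1 and KIN2 (COR6.6) encode small, nearly identical alanine-rich proteins, and their shared probe set does not tell them apart. The cold signal was 2386.7 in fab1, 2196.5 in fad2, 2586.3 in fad3/7/8, 2228.9 in 35S-FAD3, 2620.9 in Col-aeq and 2654.6 in Col-0. The ambient signal was 484.5 in fab1, 956.7 in fad2, 821.5 in fad3/7/8, 606.4 in 35S-FAD3, 978.9 in Col-aeq and 732.5 in Col-0. As with RD29A, fad2 and Col-aeq were the highest ambient arrays and fab1 and 35S-FAD3 the lowest. The fitted change was 1.72 (SE 0.119, 95% interval 1.45 to 1.98, limma adjusted p = 1.57e-06; 1.78 without Col-aeq), and the rise ran from 2.30-fold in fad2 to 4.93-fold in fab1.

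LEA4-5 belongs to the group 4 LEA proteins, which protect enzymes under water deficit and are abundant in dry seeds. Its cold signal was 71.5 in fab1, 156.1 in fad2, 81.1 in fad3/7/8, 109 in 35S-FAD3, 77.1 in Col-aeq and 86.3 in Col-0. Its ambient signal was 34.8 in fab1, 37.5 in fad2, 8.8 in fad3/7/8, 26.3 in 35S-FAD3, 43.3 in Col-aeq and 26.9 in Col-0. The fad2 cold array was the high one and the fad3/7/8 ambient array the low one, under the filter level of 21.9, so the 9.22-fold rise in fad3/7/8 is uncertain in size. The fitted change was 1.74 (SE 0.235, 95% interval 1.22 to 2.26, limma adjusted p = 0.000219; 1.92 without Col-aeq). It had the widest interval of the 6, with rises from 1.78-fold in Col-aeq to 4.16-fold in fad2 in the lines other than fad3/7/8.

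**Figure D2:**
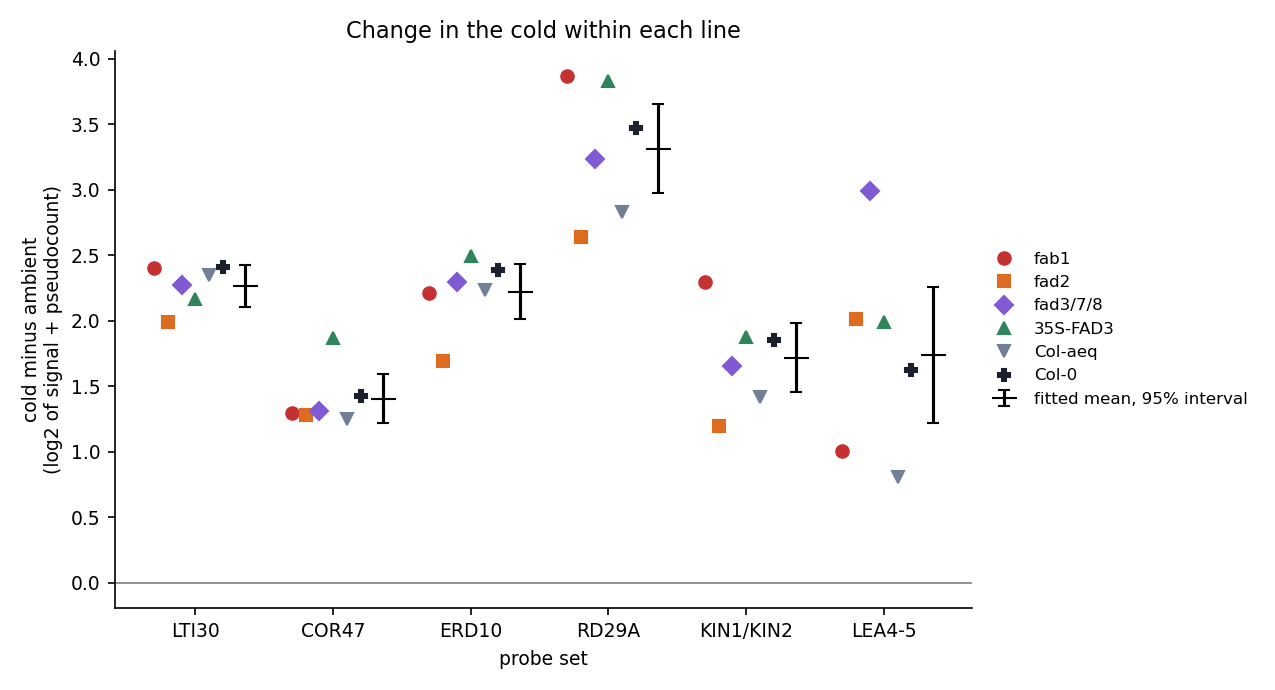
Cold minus ambient difference of log2(signal + 1.6) within each line (points, 1 array per temperature) for the 6 probe sets, with limma's fitted mean and its 95% interval over 6 lines (bars). All points lie above 0; RD29A is highest at 3.31, and fad2 gives the smallest change of the 6 lines for LTI30, ERD10, RD29A and KIN1/KIN2.

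Related genes did not all follow. Genes were matched to probe sets through the platform table, which does not list 8794 of the array's probe sets, so a gene left unmatched may still be on the array. Of 10 dehydrin genes in the list, 7 were matched, ERD10 among them through its own definition, and 4 were tested. COR47, ERD10 and LTI30 rose, and 0 fell. The remaining one, AT1G54410, known as HIRD11, a dehydrin that binds metals, had a cold median of 1903 (1770.5 to 2045.9) and an ambient median of 2050.5 (1612 to 2884) and did not pass (log2 change −0.16, SE 0.0827, limma adjusted p = 0.174). The other 3 dehydrin probe sets, those of AT2G21490, AT4G38410 and AT4G39130, had signals of 0.5 to 29.3 on the 12 arrays and were under the filter. The same held for the LEA4-5 relatives LEA4-1 and LEA4-2, at 0.5 to 16.7, so LEA4-5 was the 1 tested gene among the 3 of its group in the list. No probe set was named for ERD14, XERO1 or RAB18 in the platform table.

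Of 13 COR genes in the list, 5 were matched to a probe set, RD29A among them through its own definition. RD29A and KIN1/KIN2 are described above, and the chloroplast protectants COR15A and COR15B rose as well, by 2.51 (SE 0.167, limma adjusted p = 1.11e-06) and 2.79 (SE 0.235, limma adjusted p = 6.74e-06). All 4 of the matched COR probe sets rose by limma, where 15.0% of the 13648 probe sets tested did. Of these 4, RD29A and KIN1/KIN2 were already counted above, so COR15A and COR15B were the 2 further ones. A list of 16 other LEA genes need not hold every LEA gene on the array. Of these 16, 8 were matched and 2 were tested, AT3G02480 and AT2G46140. Neither passed for cold, with log2 changes of −0.11 (SE 0.26, limma adjusted p = 0.772) and −0.12 (SE 0.135, limma adjusted p = 0.517). Of 18 regulators of these genes, 1 was matched, SIZ1, a SUMO ligase that acts on the CBF pathway. Neither of its 2 probe sets passed, at 0.38 (SE 0.297, limma adjusted p = 0.356) and 0.24 (SE 0.126, limma adjusted p = 0.178). The first of these values was −0.020 without Col-aeq, whose ambient signal of 9.7 was the lowest. For CBF1, CBF2, CBF3 and ICE1 the table names none.

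The next comparison asked whether altered membrane lipids changed the level of these genes over both temperatures. By limma with Benjamini-Hochberg adjustment 0 of 6 probe sets passed in fab1, fad2, fad3/7/8 or 35S-FAD3 against the mean of Col-aeq and Col-0. Among all probe sets 0.0147% passed for fab1, 9.44% for fad2, 0.0293% for fad3/7/8 and 0.205% for 35S-FAD3. At limma's unadjusted p under 0.05, 1 of the 6 was found in each line. The count over all probe sets was 847 (6.2%) for fab1, 3470 (25.4%) for fad2, 1702 (12.5%) for fad3/7/8 and 1702 (12.5%) for 35S-FAD3. These 4 comparisons share the control arrays.

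In fab1 the member with the lowest p was KIN1/KIN2, at −0.47 on the log2 scale (95% interval −0.87 to −0.08, limma adjusted p = 0.779), and −0.37 without Col-aeq. The 6 differences ran from −0.47 to 0.01, with 5 lower and 1 higher. In fad2 it was ERD10, at 0.34 (95% interval 0.03 to 0.66, limma adjusted p = 0.163; 0.40 without Col-aeq), and the 6 ran from −0.11 to 0.53. The ERD10 difference came from the ambient arrays, 678.8 in fad2 against 459.6 in Col-aeq and 404.7 in Col-0, while the cold arrays stood at 2202.3 in fad2, 2170.8 in Col-aeq and 2128.4 in Col-0.

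In fad3/7/8 the lowest p was that of LEA4-5, at −0.90 (95% interval −1.67 to −0.12, limma adjusted p = 0.343; −0.77 without Col-aeq). Its cold signal of 81.1 lay between the 77.1 of Col-aeq and the 86.3 of Col-0, and the difference rested on the ambient array, 8.8 in fad3/7/8 against 43.3 in Col-aeq and 26.9 in Col-0. The other 5 probe sets of fad3/7/8 lay within −0.04 and 0.11. In 35S-FAD3 COR47 stood at −0.45 (95% interval −0.72 to −0.17, limma adjusted p = 0.237; −0.33 without Col-aeq), 5 of 6 probe sets were lower, and the 6 ran from −0.45 to 0.03. With the Col-aeq cold array alone left out, COR47 passed in 35S-FAD3 (−0.49, limma adjusted p = 0.0284) and LEA4-5 in fad3/7/8 (−1.17, limma adjusted p = 0.0355). In that fit the Col-aeq line was represented by its ambient array, and 1672 and 1806 of all probe sets passed, against 28 and 4 with every array.

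The control lines differed from each other by amounts of like size. All 6 probe sets were higher in Col-aeq than in Col-0, by 0.11 to 0.64 on the log2 scale, with RD29A at 0.64 (95% interval 0.05 to 1.23, limma adjusted p = 0.292). By limma 0 of 6 passed, where 0.117% of all probe sets did. At limma's unadjusted p under 0.05, 1 of the 6 was found, beside 2137 probe sets in all (15.7%). The median of all probe sets was −0.03. Without the Col-aeq cold array RD29A passed at 0.93 (limma adjusted p = 0.0493), a fit in which Col-aeq was again represented by its ambient array. Without the Col-aeq ambient array the RD29A difference was 0.35 (limma adjusted p = 0.709). The Col-aeq ambient array, with its actin ratio of 7.00, was the highest ambient array for 3 of the 6 probe sets, and the part of its RNA quality in these values was not tested.

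The cold change itself was then compared between the 3 mutant lines and the 2 control lines, with 35S-FAD3 fitted as a class of its own. By limma on the within-line differences 0 of 6 probe sets passed and 0 had an unadjusted p under 0.05. Of all probe sets 0% passed, and 1027 (7.5%) had an unadjusted p under 0.05 by limma. LEA4-5 had the lowest p, with a cold change 0.79 larger in the mutants (95% interval −0.35 to 1.92, limma adjusted p = 0.703), and 0.38 larger without Col-aeq. The value was 1.28 without either fab1 array, 1.19 without either Col-0 array and 0.29 without either fad3/7/8 array, and it did not pass in any of these fits. The 95% interval was −0.53 to 0.21 for LTI30, −0.35 to 0.26 for COR47, −0.69 to 0.20 for ERD10, −0.65 to 0.84 for RD29A and −0.56 to 0.72 for KIN1/KIN2. Differences of up to these bounds are compatible with the data, so a like cold response was not shown. Single lines could not be tested for their cold change, as each has 1 array per temperature.

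**Figure D3:**
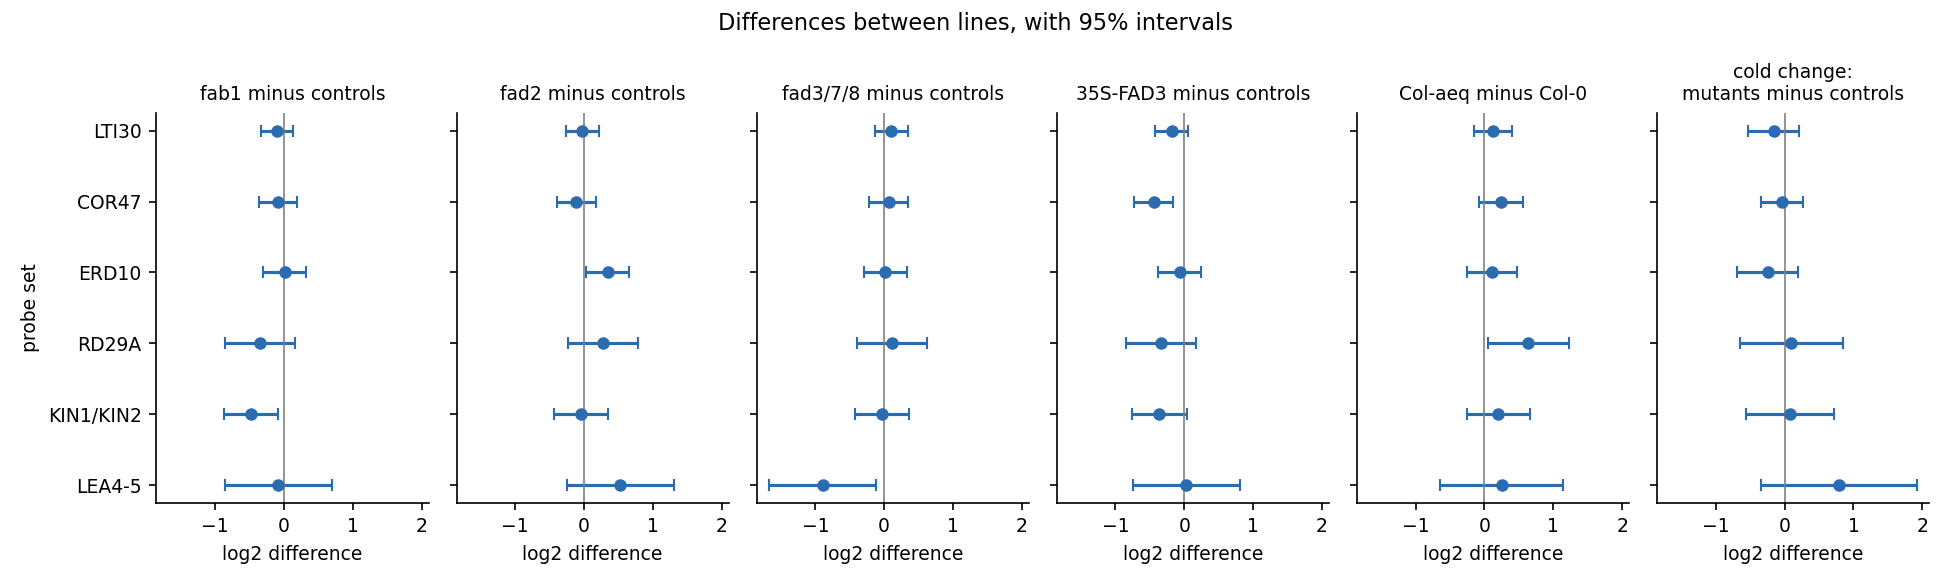
Log2 difference (points) with limma's 95% interval (bars) for each probe set, over both temperatures for the altered lines against the mean of Col-aeq and Col-0 and for Col-aeq against Col-0, and for the cold change in the last panel. A few unadjusted intervals miss 0, such as COR47 in 35S-FAD3 at −0.45, but no difference passed after adjustment over all probe sets.

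For 5 of the 6 genes the lines lay further apart at ambient temperature than in the cold. For ERD10 the SD over the 6 lines, on the log2 scale, was 0.0274 in the cold and 0.288 at ambient temperature. RD29A had 0.117 and 0.567, KIN1/KIN2 0.121 and 0.394, COR47 0.104 and 0.308, and LEA4-5 0.413 and 0.759. The LEA4-5 ambient SD contains the fad3/7/8 array at 8.8, under the filter level of 21.9. In the other lines LEA4-5 ran from 26.3 to 43.3 at ambient temperature and from 71.5 to 156.1 in the cold. The cold range was the wider one in proportion. LTI30 was the exception, with 0.141 in the cold and 0.128 at ambient temperature. The larger SD was thus at ambient temperature in 5 of 6. The share was 67.7% among all probe sets tested and 83.3% among those with a mean cold signal over 2000. The median ratio of ambient to cold SD was 3.10 for the 6 and 1.25 for all. Without Col-aeq the ambient SD was larger in 6 of 6, against 52.6% of all, with median ratios of 3.27 and 1.03. For LTI30 the SDs were then nearly equal, 0.137 in the cold and 0.140 at ambient temperature.

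The cold signals of 5 of the genes were near the top of the arrays. LTI30, COR47, ERD10 and KIN1/KIN2 were above 99.2% or more of the probe sets on each cold array, and RD29A above 98.6% or more. LEA4-5 was not among the strong signals, above 64.9% to 80.8% of probe sets, and its SD was also larger at ambient temperature. On each cold array 155 to 183 probe sets had signals over 2000, and the highest signal of an array, over all 12 arrays, was 4043 to 5883. Among 162 probe sets with a mean cold signal over 2000, the median SD over lines was 0.102 in the cold and 0.140 at ambient temperature, and 83.3% had the larger SD at ambient temperature. The cold SD of ERD10 was the 7th smallest of all 13648. Whether strong signals are compressed on these arrays was not tested.

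**Figure D4:**
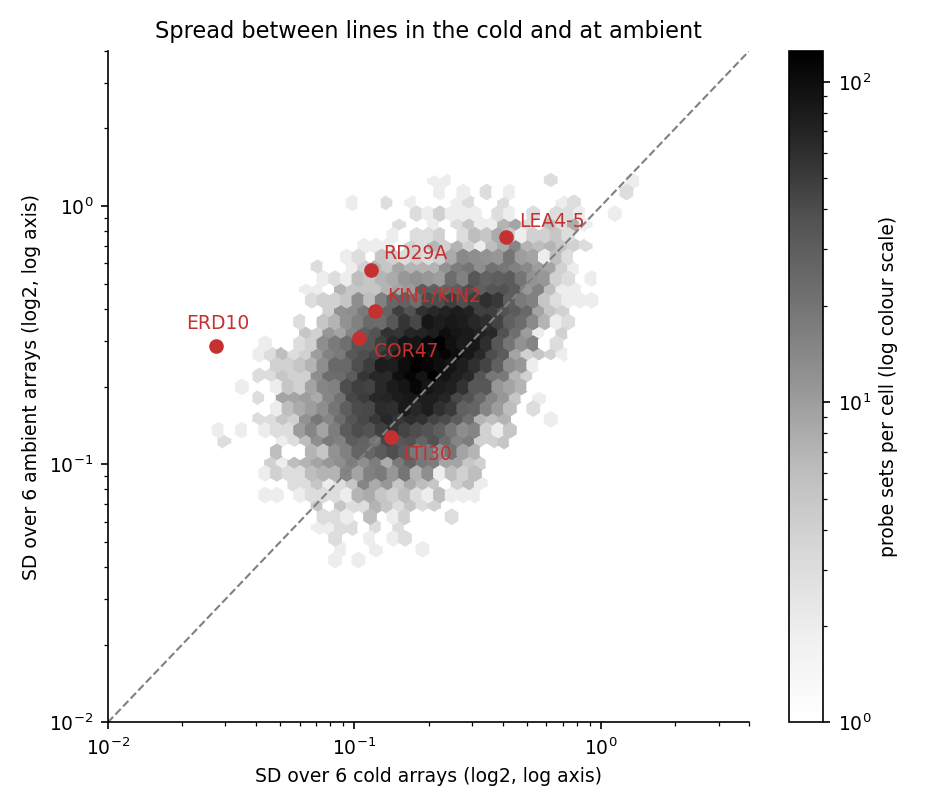
SD of log2(signal + 1.6) over the 6 cold arrays (horizontal) and over the 6 ambient arrays (vertical), both on log axes, for 13648 probe sets (grey, darker where more probe sets lie) and the 6 probe sets described (red); the dashed line marks equal SD. ERD10 lies far left at 0.0274, and LTI30 is the red point just under the line.

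At ambient temperature the order of the lines was similar for several of these genes. The fad2 and Col-aeq arrays were each among the highest 2 of the 6 for 5 probe sets, and the 35S-FAD3 array was among the lowest 2 for 5. In the cold Col-aeq was among the highest 2 for 4 probe sets and 35S-FAD3 among the lowest 2 for 4, while fad2 was among the highest 2 for 2 and among the lowest 2 for 3. The 6 probe sets share their arrays, so they are not separate evidence on a line. How often these arrays ranked so among all probe sets was not examined.

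Across the 12 arrays the 15 pairs of these probe sets correlated at Pearson's r of 0.79 to 0.99 (log2 scale), a value that includes the step between temperatures. With the mean of each temperature taken out, r ran from −0.43 (LTI30 and LEA4-5) to 0.87 (RD29A and KIN1/KIN2), with a median of 0.47. LEA4-5 followed the others least. Its r with temperature removed was −0.12 with COR47, 0.32 with ERD10, 0.07 with RD29A and −0.10 with KIN1/KIN2. The neighbouring genes COR47 and ERD10 had r = 0.34. Each of these values describes 12 arrays that share their labelling and scaling. Over the 6 ambient arrays alone the median r of the 15 pairs was 0.51, and over the 6 cold arrays alone 0.10. RD29A and KIN1/KIN2 had 0.93 over the ambient arrays and 0.10 over the cold arrays. LTI30 and COR47 went the other way, with 0.53 and 0.94.

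The named genes most like the mean standardized profile of the 6 over 12 arrays were AT2G23120 (r = 0.993), AT4G36010 (0.986), AT3G30460 (0.984), AT1G51090 (0.984) and AT5G47060 (0.983). The profile they were matched to contains the cold step, so their rise in the cold was fixed by the choice and is given as a description. AT2G23120 had cold signals of 1315 to 1575 and ambient signals of 480.3 to 753.9, with a log2 difference of 1.27. That difference was 2.53 for AT3G30460, 3.21 for AT5G47060, 4.35 for AT1G51090 and 4.50 for AT4G36010. With the mean of each temperature taken out, AT2G23120 was again first (r = 0.919), and COR15B came next (0.857), followed by AT5G66310 (0.834), AT2G42520 (0.832) and AT3G07030 (0.814).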

How the data were processed

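For 12 arrays, with total RNA as the extracted material and biotin as the label, the authors deposited a linear intensity per probe set (22810). It is a MAS5 signal. The submitters' processing notes name MAS5 and GCOS but no settings. With 2% trimmed from both ends, each array averages 100, and this deposited scaling was kept. The number of arrays limits the precision. The reported p-values and intervals set each difference against how unevenly the cold change ran across these lines. As each line has 1 array per temperature, the spread between replicates of a line is not measured.

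The platform table named 4 of the 6 probe sets; the probe sets of ERD10 and RD29A are not in it, and their names are those in the definition of the members. The files and tables used here hold no sequences, so none are printed. The members and lists were chosen with earlier results of these data known. Of 75 genes in the lists, 30 were matched to a probe set through the platform table or the definition of the members, counting a shared one for both its genes.

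The 64 control probe sets were left out. Values were log2(signal + 1.6), with the 10th percentile of the deposited values as pseudocount, so changes of low signals are understated. Probe sets with a mean log2 value at or above the 40th percentile, a signal of 21.9, were tested (13648). A model with terms for temperature and line, with an intensity trend, was fitted in limma 3.58.1 under R 4.3.3 (5 residual degrees of freedom), and another for classes of lines on within-line differences (3 degrees of freedom). Benjamini-Hochberg adjusted p under 0.05 over all probe sets was the threshold, and SE and 95% intervals are limma's moderated ones. The fit was tested on simulated data. The text names the 6 members, tested genes of the lists and, by correlation, the 5 single-gene probe sets most like their mean; in each line comparison the member with the lowest p is given. Alternatives were quantile normalization, median centring, other pseudocounts and filters, no trend, array weights, no line block, single control lines, all altered lines as 1 class and leaving out arrays. Python 3.11.15 with pandas 2.3.3 and matplotlib 3.10.9 made the summaries and plots.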

Additional observations from a re-analysis of the deposited data

Results flagged for a closer look

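For each of the 6 probe sets the 6 cold signals, the 6 ambient signals and the 6 cold changes were searched for 1 line far from the others (18 sets of values), where chance marks about 1 set in 20. There were 3 such cases. The ERD10 signal of the fad2 ambient array was 678.8, against 386.3 to 459.6 in the other 5 lines. The ERD10 cold change in fad2 was 1.70 on the log2 scale, against 2.21 to 2.49, and it contains that ambient array. The COR47 cold change in 35S-FAD3 was 1.87, against 1.25 to 1.43, with an ambient signal of 573.5 against 838 to 1053.9 in the other lines. Each case rests on 1 array per temperature.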

How the results depend on the processing

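The count for cold was 6 of 6 probe sets under every alternative, except the filter at the 60th percentile, which left LEA4-5 untested and gave 5 of 5. The 6 cold changes kept direction and call in all alternatives run, with LTI30 at 2.24 to 2.32, COR47 at 1.31 to 1.44, ERD10 at 2.17 to 2.33, RD29A at 3.20 to 3.45, KIN1/KIN2 at 1.60 to 1.82 and LEA4-5 at 1.49 to 1.92. In the line comparisons 0 of 6 passed under all alternatives, except that leaving out 1 array gave counts of 0 to 1 for 35S-FAD3, fad3/7/8 and Col-aeq against Col-0, each 1 without the Col-aeq cold array. Leaving out 1 array moved the named differences to between −0.82 and −0.13 (KIN1/KIN2 in fab1), 0.03 and 0.66 (ERD10 in fad2), −1.65 and −0.14 (LEA4-5 in fad3/7/8), −0.72 and −0.17 (COR47 in 35S-FAD3), 0.35 and 0.93 (RD29A in Col-aeq against Col-0) and 0.29 and 1.28 (LEA4-5, cold change). The numbers of all probe sets that passed moved more, over the ranges 1 to 745 for fab1 (2 reported), 51 to 3396 for fad2 (1289), 0 to 1806 for fad3/7/8 (4), 3 to 1672 for 35S-FAD3 (28), 1 to 2484 for Col-aeq (16) and 0 to 550 for the cold change (0). The highest came without the Col-aeq cold array, and for the cold change without the Col-0 cold array; without both Col-aeq arrays they were 16, 1581, 692 and 312 for the 4 altered lines in the same order. The cause was not tested. Uncalled cold changes that turned sign were those of AT3G02480, −0.42 to 0.061 when 1 array was left out and 0.019 without both 35S-FAD3 arrays, and of 1 SIZ1 probe set, −0.020 to 0.53 and −0.020 without both Col-aeq arrays. Without either fad2 array AT3G02480 no longer passed in fad2, and AT2G46140 kept its call under 12 of 23 alternatives. By replicate number no paired analysis was possible because all 12 arrays carry the number 1. The reported fit pairs the temperatures by line, and without the line term the 6 cold calls held. With quantile normalization or median centring the overall median change differed most in fad2, at −0.02 and −0.08 against 0.02 as reported.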

Other observations

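In the list of other LEA genes, which need not hold every LEA gene on the array, the 2 tested were higher in fad2. Neither passed for cold. AT3G02480 was higher by 2.14 on the log2 scale (SE 0.39, limma adjusted p = 0.0103), and AT2G46140 by 0.80 (SE 0.202, limma adjusted p = 0.0345), 2 of the 2 tested genes of that list, where 9.44% of all probe sets passed in either direction. The AT2G46140 difference kept its call under 12 of 23 alternatives, and its adjusted p ran from 0.0168 to 0.262 over them. The AT3G02480 difference no longer passed without the fad2 ambient array (0.124) or the fad2 cold array (0.106). The 6 probe sets described in the report did not pass in fad2, and a difference between the 2 sets of genes was not tested. The root genes PER57 (1.11) and EXPA18 (0.96) were also higher in fad2, and the part of root tissue in the values of AT3G02480 and AT2G46140 was not tested.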
